A study of Homo sapiens with 2 samples.

Results

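The genes described here are 50 genes of epithelial cell junctions and epithelial identity, taken as a fixed list by function from the 57736 Ensembl genes of an RNA-Seq count table. They comprise 10 claudins, 9 other tight junction and polarity genes, 15 desmosome genes, 12 epithelial regulators and surface proteins, and 4 adherens junction genes. RNA was sequenced from the ovarian cancer line A1847, of human origin, in 1 library of parental cells that are wild type for CARM1 and 1 library of CARM1 KO cells. The knockout is a single clone obtained by CRISPR from the parental line, so the loss of CARM1 and the choice of that clone cannot be told apart. CARM1 is an arginine methyltransferase, and the study asked which genes it keeps silent together with EZH2. No drug treatment is given in the labels of either library.

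Epithelial cells are held together by 3 kinds of junction. Tight junctions seal the space between cells with claudins and occludin, which bind scaffold proteins such as TJP1. Adherens junctions join cells through cadherins and catenins, and desmosomes anchor desmogleins and desmocollins to keratin filaments through plakoglobin, plakophilins and desmoplakin. Factors such as GRHL2, OVOL1 and the splicing regulators ESRP1 and ESRP2 maintain this program, and repressors such as ZEB1 and SNAI2 switch it off when cells become mesenchymal.

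The deposited values were read counts per gene estimated by RSEM, with 30741953 reads in the parental library and 32300391 in the CARM1 KO library. Where a pair of read numbers is given for a gene, the parental library comes first and the CARM1 KO library second. Counts were scaled by TMM, and fold changes are CARM1 KO over parental with an exact 95% binomial interval that covers counting error only. With 1 library per group no difference has a replicate check, and no p-value is given. A gene was compared where its reads in the libraries summed to at least 10, and called where it differed by more than 3-fold, the fold threshold of the study, with an interval on one side of 1. CARM1, the targeted gene, had 975 and 380 reads, 2.65-fold lower (95% interval 2.35 to 2.99) and under the fold threshold.

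Of the 50 genes, 41 were compared, 20 were called higher and 3 were called lower in CARM1 KO cells. The 20 make up 48.8% of the compared members, against 12.3% of all 18563 compared genes and 12.3% of the 14140 compared protein-coding genes. The 3 lower members make up 7.32%, against 11.3% of all compared genes and 9.10% of the protein-coding genes. The list was chosen with earlier results of these data known, so these shares describe the list and are not an independent test. On the log2 scale and with a prior count of 2, the median change was 1.29 over the compared members and 0.02 over the protein-coding set. The members' median was 1.69 without the prior count and with genes at 0 reads set to 3. Several members, such as CDH1 and ELF3, passed the minimum of reads only through the library in which they were high. The higher members were 9 of the 15 desmosome genes, 6 of the 12 regulators and surface proteins, 2 claudins, 2 cadherins and MARVELD2, and the lower members were CLDN6, CLDN15 and ELF3.

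**Figure D1:**
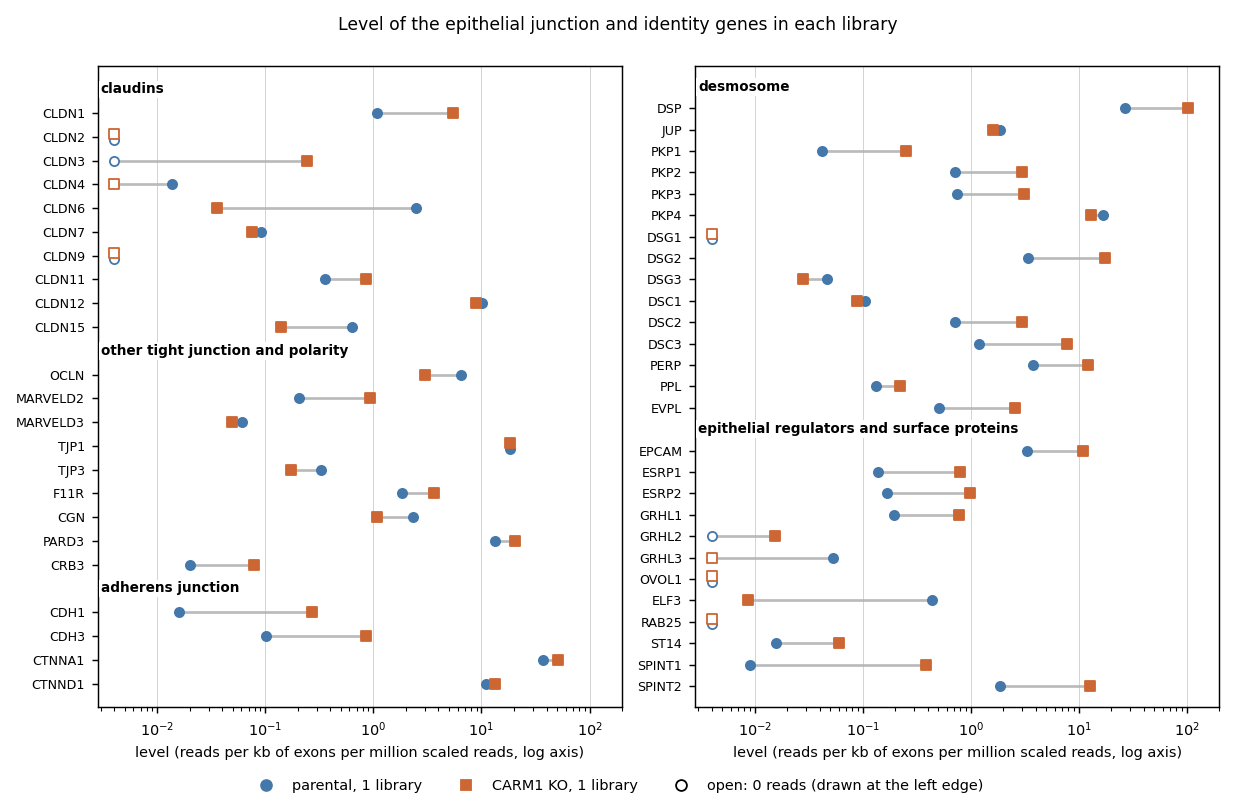
Level of each of the 50 genes in parental (circles) and CARM1 KO (squares) cells, as reads per kilobase of merged exons per 1000000 scaled reads on a log axis, with 1 library per point and open symbols for 0 reads. DSP was at 26.9 in parental and 103 in CARM1 KO cells, while TJP1 was at 18.3 in both.

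The desmosome genes rose together, in 9 of the 14 that were compared, by between 3.25-fold for PERP and 6.54-fold for DSC3. DSP encodes desmoplakin, which links the desmosome to keratin filaments, and lies at chr6:7541571-7586947 of GRCh37 on the plus strand. It had 11369 and 45120 reads, a rise of 3.84-fold (95% interval 3.77 to 3.92). Per length, DSP was the second highest of the 50 genes in parental and the highest in CARM1 KO cells, at percentiles 90.3 and 98.1 of the compared protein-coding genes. An antisense gene, DSP-AS1, overlaps 81 bases of its exons and had 23 and 97 reads.

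The desmosomal cadherins lie in 1 cluster on chromosome 18 of GRCh37, from 28569331 at DSC3 to 29128971 at DSG2, and its members differed from one another. DSG2, the desmoglein of simple epithelia, rose from 1002 to 5254 reads, which was 5.08-fold (95% interval 4.74 to 5.44). DSC2, its desmocollin counterpart, rose from 274 to 1187 reads, which was 4.19-fold (95% interval 3.67 to 4.80). DSC3, a desmocollin best known from stratified epithelia, rose from 284 to 1919 reads, which was 6.54-fold (95% interval 5.77 to 7.44). The genes that lie between DSC2 and DSG2 in the cluster were scarce and were not called. DSC1 had 14 and 12 reads, DSG3, the desmoglein of the deep epidermis, had 8 and 5 reads, and DSG1 had 0 reads in both libraries.

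Summed per length, the desmogleins and desmocollins were 5.16-fold higher in CARM1 KO cells, at 28.1 against 5.45 on the scale of reads per kilobase of exons per 1000000 scaled reads. The make-up of this pool moved little. DSG2 supplied 62.4% of it in parental and 61.4% in CARM1 KO cells, DSC3 supplied 21.8% and 27.6%, and DSC2 13.0% and 10.5%. The ratio of desmogleins to desmocollins was 1.72 in parental and 1.60 in CARM1 KO cells.

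Plakophilins bind the tails of desmosomal cadherins to desmoplakin. PKP2 rose from 230 to 977 reads, which was 4.11-fold (95% interval 3.56 to 4.77). PKP3 rose from 87 to 380 reads, which was 4.23-fold (95% interval 3.34 to 5.40), and PKP1 rose from 8 to 50 reads, which was 6.05-fold (95% interval 2.85 to 14.8). PKP4, a more distant relative also found at adherens junctions, had 4927 and 3990 reads, 1.28-fold lower and not called. As PKP4 was the most abundant of the 4 per length, their summed level was 18.2 in parental and 19.4 in CARM1 KO cells. Its share of that sum went from 91.7% to 67.3%, and PKP1, PKP2 and PKP3 together were 4.22-fold higher.

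Of the remaining desmosome genes, 2 were called. EVPL encodes envoplakin, a plakin of the cornified envelope, and rose from 115 to 607 reads, which was 5.11-fold (95% interval 4.18 to 6.29). PERP encodes a tetraspan protein of desmosomes and a target of p53. It rose from 488 to 1637 reads, which was 3.25-fold with an interval of 2.93 to 3.60 that reaches below the threshold. JUP encodes plakoglobin, the catenin of the desmosome, and had 285 and 254 reads, with a fold change of 0.863 and an interval of 0.726 to 1.03. PPL, the partner plakin of EVPL, had 32 and 54 reads, a fold change of 1.63 with an interval of 1.04 to 2.62. Plakoglobin, which binds the tails of desmosomal cadherins, was thus not among the genes that rose.

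**Figure D2:**
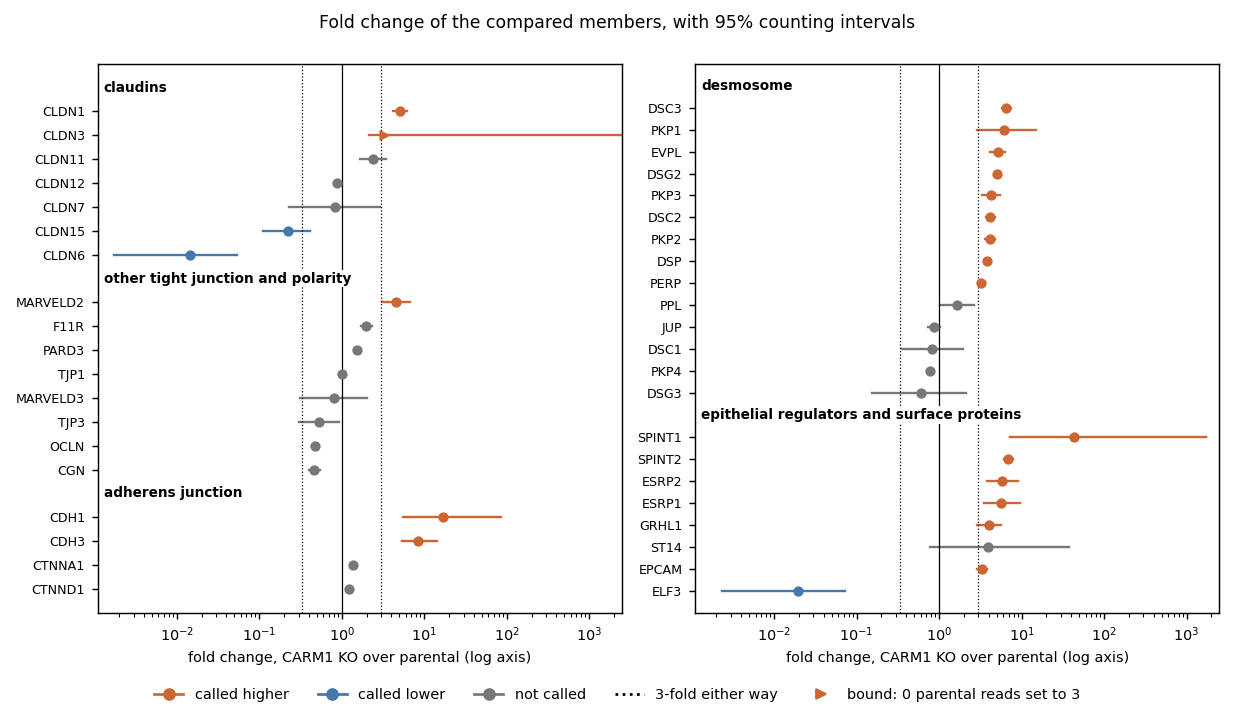
Fold change of the 41 compared genes, CARM1 KO over parental on a log axis, with 95% counting intervals as lines and 3-fold limits dotted. The 9 desmosome genes called higher sit between 3.25 and 6.54, while OCLN at 0.470 and CGN at 0.467 sit below 1.

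In the adherens junction, both cadherins rose and both catenins were under the fold threshold. CDH1, which encodes E-cadherin, lies at chr16:68771195-68869440 of GRCh37 and had 3 and 53 reads. The ratio was 17.1, with a counting interval of 5.54 to 85.6. CDH3, which encodes P-cadherin, is its neighbour at chr16:68670092-68761371 and rose from 20 to 176 reads, which was 8.52-fold (95% interval 5.35 to 14.3). Both stayed scarce in CARM1 KO cells. Per length CDH1 was at 0.272 and CDH3 at 0.860 there, while CTNNA1, the alpha-catenin that links cadherins to actin, was at 50.6. CTNNA1 had 10161 and 14298 reads, a fold change of 1.36 (95% interval 1.33 to 1.40). CTNND1, which encodes p120-catenin, had 5172 and 6530 reads, a fold change of 1.22 (95% interval 1.18 to 1.27).

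The claudins moved in both directions and some were not detected. CLDN1, a barrier-forming claudin, rose from 121 to 634 reads, which was 5.07-fold (95% interval 4.17 to 6.21). CLDN6, a claudin of embryonic epithelia and some tumours, fell from 133 reads to 2 reads, a ratio of 68.7 with an interval of 18.6 to 573. CLDN15, a pore-forming claudin of the intestine, had 57 and 13 reads and was 4.53-fold lower (95% interval 2.45 to 9.02). CLDN3 had 0 and 10 reads, 3.23-fold higher with the 0 set to 3 reads, at the edge of what this depth can show. The counting interval for CLDN3 began at 2.17, below the threshold, and had no upper limit.

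CLDN12, an atypical claudin without the usual tail motif that binds TJP1, was the most abundant claudin per length in both libraries, with 2114 and 1915 reads. Its exons overlap those of CDK14 and GTPBP10 on the same strand, by 201 and 347 bases, so its reads may hold some of theirs. CLDN11 had 48 and 118 reads, a fold change of 2.38 (95% interval 1.69 to 3.40). CLDN7 had 7 and 6 reads, CLDN4 had 2 and 0 reads, and CLDN2 and CLDN9 had 0 reads in both libraries. CLDN3, CLDN4 and CLDN7, which are known to be abundant in many ovarian carcinomas, were therefore at 10 reads or fewer in either library.

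The summed level of the 10 claudins per length was 14.8 in parental and 15.7 in CARM1 KO cells, while its make-up differed. CLDN6 went from 16.7% to 0.228% of the sum and CLDN1 from 7.27% to 34.7%. CLDN12 held 68.7% in parental and 56.7% in CARM1 KO cells.

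**Figure D3:**
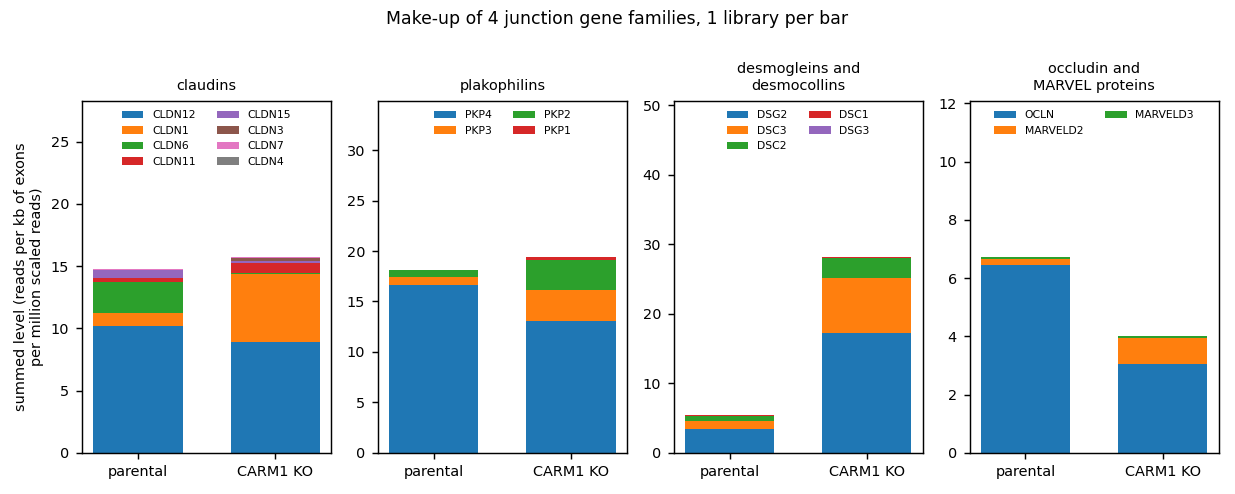
Summed level of 4 junction gene families, in reads per kilobase of exons per 1000000 scaled reads, with 1 library per bar and each segment a gene. The claudin and plakophilin sums differ little between the libraries while their segments change, and the desmosomal cadherin sum goes from 5.45 to 28.1.

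Of the other tight junction and polarity genes, MARVELD2 alone was called. MARVELD2 encodes tricellulin, the MARVEL protein of corners where several cells meet, and rose from 34 to 158 reads, which was 4.50-fold (95% interval 3.09 to 6.73). OCLN, which encodes occludin, had 2254 and 1093 reads, with a fold change of 0.470 (95% interval 0.436 to 0.505). CGN encodes cingulin, a cytoplasmic protein that links tight junctions to actin, and had 477 and 230 reads, with a fold change of 0.467 (95% interval 0.397 to 0.548). Both genes lay below 1 beyond counting error and inside the 3-fold limit. Occludin held 96.1% of the summed level of OCLN, MARVELD2 and MARVELD3 in parental and 75.8% in CARM1 KO cells, and MARVELD2 held 3.04% and 23.0%.

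TJP1, which encodes ZO-1, the main scaffold of the tight junction, differed by less than counting error between the libraries. It had 6415 and 6611 reads, a fold change of 0.998 (95% interval 0.964 to 1.03). PARD3, a polarity scaffold, had 3011 and 4805 reads, a fold change of 1.55 (95% interval 1.48 to 1.62). F11R encodes the junctional adhesion molecule JAM-A and had 287 and 592 reads, with an interval of the fold change from 1.73 to 2.31. TJP3, which encodes ZO-3, had 40 and 22 reads, and MARVELD3 had 12 and 10 reads. CRB3, an apical polarity protein, had 1 and 4 reads and was under the minimum.

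The regulators and surface proteins ranged from SPINT1, with the largest rise of the called members, to genes with no reads at all. SPINT2, which encodes a membrane inhibitor of serine proteases, rose from 295 to 2087 reads, which was 6.85-fold (95% interval 6.06 to 7.77). SPINT1, the related inhibitor, had 1 and 44 reads, a ratio of 42.6 with an interval of 7.26 to 1721. ST14 encodes matriptase, a protease that both inhibitors block, and had 2 and 8 reads, with an interval of 0.773 to 37.4. EPCAM, an epithelial adhesion molecule, rose from 249 to 848 reads, which was 3.30-fold with an interval of 2.86 to 3.81 that reaches below the threshold.

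The splicing regulators ESRP1 and ESRP2 rose by near-equal factors. ESRP1 had 21 and 123 reads, 5.67-fold higher (95% interval 3.55 to 9.49). ESRP2 had 27 and 162 reads, 5.81-fold higher (95% interval 3.85 to 9.09). The exons of ESRP2 overlap 227 bases of NFATC3 on the other strand, which had 1937 and 1779 reads. Whether strand was used in counting is not given in the sources used here, so reads in that overlap cannot be assigned to either gene.

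The Grainyhead factors, which switch on junction genes in epithelia, were not alike. GRHL1 rose from 48 to 199 reads, which was 4.01-fold (95% interval 2.92 to 5.62). GRHL2 had 0 and 3 reads, and GRHL3 had 7 and 0 reads, both under the minimum. OVOL1, a repressor of mesenchymal genes, and RAB25, a small GTPase of epithelial recycling endosomes, had 0 reads in both libraries. ELF3, an epithelium-specific ETS factor, fell from 98 reads to 2 reads, a ratio of 50.6 with an interval of 13.6 to 424. Its antisense neighbour ELF3-AS1 had 15 and 0 reads. GRHL2 was all but undetected in both libraries, and a part of any Grainyhead factor in the junction genes was not tested.

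**Figure D4:**
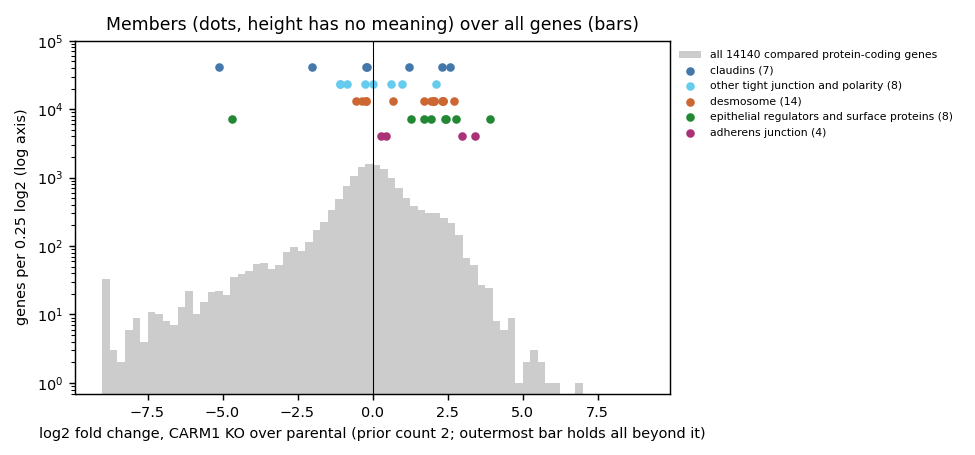
Log2 fold change (prior count 2) for the 41 compared members (dots, in rows by role) above the same for the 14140 compared protein-coding genes (bars, counts on a log axis). Most desmosome genes lie in a narrow band near 2, and the claudins spread from -5.11 to 2.57.

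The spread assumed between libraries decided most of these calls. With edgeR's exact test at a coefficient of variation of 0.12, an FDR under 0.05 and a fold above 3, 20 members were called higher and 3 lower, as above. At a coefficient of 0.4, 5 of the 41 compared members were called higher, namely CDH1, CDH3, DSC3, SPINT1 and SPINT2. The 2 called lower were CLDN6 and ELF3. Of all 18563 compared genes, 532 were higher and 894 lower at that coefficient. Of the 9 desmosome genes, DSC3 alone was called at 0.4. Where the whole counting interval had to lie beyond 3-fold, CLDN3, CLDN15, PKP1, PERP, EPCAM and GRHL1 were no longer called. Under that rule 15 members were higher and 2 lower, beside 1264 higher and 1245 lower of all 18563 compared genes.

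The cell type of the line was checked on marker genes. Of 10 epithelial and ovarian carcinoma markers, 8 were compared, 6 were higher and 1 was lower in CARM1 KO cells. Their summed level was 1419 in the parental and 4731 in the CARM1 KO library, as reads per 1000000 scaled reads and not per length. The keratins KRT7, with 4417 and 26653 reads, KRT8, and KRT18, with 21154 and 51223 reads, made up most of that sum in both libraries. KRT18, 2.35-fold higher, was the compared marker of this list that was not called. EPCAM and CDH1 are on this list as well as among the 50 genes, so 2 of the 6 are not independent of the members. Both libraries held abundant KRT8, a keratin of simple epithelia, with 17600 and 70370 reads, while E-cadherin was near 0 reads in parental cells. The lower marker was KRT19, with 45 and 0 reads. WT1, with 8 reads and 1 read, and MUC16, with 0 reads and 1 read, were under the minimum. Of 6 fibroblast markers, 4 were lower and 1 was higher, and their summed level was 1013 in parental and 21.4 in CARM1 KO cells. COL1A2, with 16732 and 3 reads, and PDGFRA, with 14326 and 2 reads, made up most of it in parental cells. DCN had 24 and 0 reads and LUM had 61 reads and 1 read. COL1A1 went the other way and was called higher, with 131 and 537 reads, and PDGFRB was not called, with 132 and 142 reads. Of the other markers, the 2 endothelial genes matched were under the minimum, and 2 of 4 leukocyte genes were compared, with CD68 at 400 and 1644 reads. The fibroblast sum was lower where the epithelial genes were higher, and the part of these markers in the result was not tested. In bulk RNA, fewer cells of a type and less RNA per cell cannot be told apart.

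Other genes of the same junctions and pathways, listed by function, did not move in 1 direction. Of 67 such genes, 44 were compared, 9 were higher and 10 were lower. Over all 18563 compared genes, 12.3% were called higher and 11.3% lower, the shares to set beside each count of related genes here and below. Whether the counts differ from these shares was not tested. Among the known repressors of CDH1, 3 of 7 were lower and 1 was higher. SNAI2 fell from 727 to 207 reads, TWIST1 from 1363 to 357 reads and TCF4 from 7363 to 168 reads. ZEB2 went the other way and rose from 430 to 2172 reads, which was 4.89-fold (95% interval 4.41 to 5.44). ZEB1 had 2429 and 1201 reads, a fold change of 0.479 that was inside the 3-fold limit. CDH2, which encodes N-cadherin, the mesenchymal counterpart of CDH1, was also higher, with 1451 and 6087 reads.

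Of the 18 compared scaffolds and receptors of tight junctions and polarity outside the 50, 4 were lower and 0 were higher. JAM3, a junctional adhesion molecule, had 3257 and 0 reads, 1121-fold lower with the 0 set to 3 reads and with a counting interval that began at 911. PARD6B, a partner of PARD3 in the polarity complex, fell from 3702 to 438 reads, CXADR, a receptor at tight junctions, from 1162 to 352 reads, and PATJ from 1575 to 537 reads. The fold of PATJ, 3.03-fold lower, lay at the threshold. Of 11 further claudins, 2 were compared, and the higher one, CLDN16, had 2 and 10 reads.

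Among the other adherens junction genes, 3 of 11 were higher and 3 were lower. NECTIN3, an adhesion molecule that recruits cadherins, rose from 764 to 2936 reads. The other higher genes were CDH2, given above, and CDH11, a further cadherin, with 5 and 23 reads. The lower genes, named after their values were seen, were CDH6, another cadherin, with 46 reads and 1 read, NECTIN1 with 96 and 30 reads, and NECTIN4 with 11 and 2 reads. Beta-catenin, encoded by CTNNB1, had 11901 and 15140 reads, a fold change of 1.23. Of the other epithelial regulators, KLF5, a factor of proliferating epithelium, rose from 541 to 2305 reads, which was 4.13-fold (95% interval 3.76 to 4.54), and KLF4 was also higher, with 18 and 76 reads. AP1M2, the adaptor subunit of polarised sorting in epithelia, rose from 386 to 1889 reads, which was 4.74-fold (95% interval 4.25 to 5.30), and MAL2, of apical transport, had 4 and 36 reads.

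Since ZEB, SNAI and TWIST factors bind E-boxes, promoter windows of 250 bases before to 50 bases after the start were searched for CAGGTG on both strands. The windows come from RefSeq on GRCh38.p14, while the counts use hg19. At least 1 window was matched for 32 of the 50 genes, and 16 of these held the E-box, against 24.1% of the 27305 genes with a window. A gene held it if any of its windows did, and the number of windows per gene was not matched. Among the higher members, CDH1, CDH3, EPCAM, ESRP1, ESRP2, SPINT2, PKP2, PKP3 and EVPL had no window and were not searched. By call, it was held by 5 of 11 higher members, 2 of 3 lower members, 5 of 12 compared members that were not called, and 4 of 6 under the minimum of reads. The Grainyhead motif AACCNGTT was held by 1 of the 32, CGN, against 2.14% of all genes. A match is a stretch of letters and not a shown binding site.

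The 30-base stretches below show the E-box, in capitals, before the start of 2 higher members, DSP and SPINT1, of ELF3, which was lower, and of OCLN and TJP1, which were not called. They lie at chr6:7541481-7541510 and chr6:7541574-7541603 for DSP, chr15:40844439-40844468 for SPINT1, chr1:202010455-202010484 for ELF3, chr5:69492645-69492674 for OCLN and chr15:29969120-29969149 for TJP1, on the minus strand for TJP1 and the plus strand for the others, all of GRCh38.
DSP, first E-box: gggcggcgggcgCAGGTGgggaggggcggc
DSP, second E-box: gaagaaaccggcCAGGTGtggcctaggcgc
SPINT1: tcccgggctgatCAGGTGtgtctcctcctc
ELF3: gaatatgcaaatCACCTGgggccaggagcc
OCLN: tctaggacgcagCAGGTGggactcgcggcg
TJP1: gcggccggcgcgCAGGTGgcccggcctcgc
Counted from the start, with bases before it negative, the E-box began at -178 and -85 in DSP, -26 in SPINT1, -120 in ELF3, -133 in OCLN and -88 in TJP1. OCLN, SPINT1 and TJP1 each have more than 1 annotated start, and the position given refers to 1 of them. OCLN also has further matches that are not shown. These genes were picked to show the letters beside each kind of call, and a part of E-box binding in the calls was not tested.

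The called members were also set beside their neighbours on the chromosome, the 5 nearest protein-coding genes on either side that held at least 50 reads over both libraries. Over the 20 higher members, the neighbours' median log2 fold change lay between -0.79 beside PKP1 and 0.98 beside PERP, with a median of 0.18. The higher members themselves lay between 1.70 and 3.91 on the same scale. They were picked by a fold above 3 and the neighbours were not, so a gap between them follows in part from the call rule. For 4 of the 20, MARVELD2, PKP3, ESRP2 and SPINT1, no neighbour was called higher, and for 6, CLDN1, PKP1, ESRP1, DSG2, DSC2 and DSC3, 3 or more were. Of all compared protein-coding genes, which needed at least 10 reads rather than 50, 12.3% were called higher. A higher neighbour can therefore occur beside any gene. Whether these counts differ from that share was not tested, and DSG2, DSC2 and DSC3 share 1 locus. CDH1 and CDH3 were neighbours of one another, with neighbour medians of 0.24 and 0.55 and values of their own of 3.42 and 2.97. The desmosomal cadherins had 3 or 4 higher neighbours each, which included one another and CDH2. CLDN6, at -5.11, had neighbours with a median of 0.78, and ELF3, at -4.68, had neighbours with a median of -0.53. CLDN15, at -2.02, had 2 lower neighbours and a median of 0.11.

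**Figure D5:**
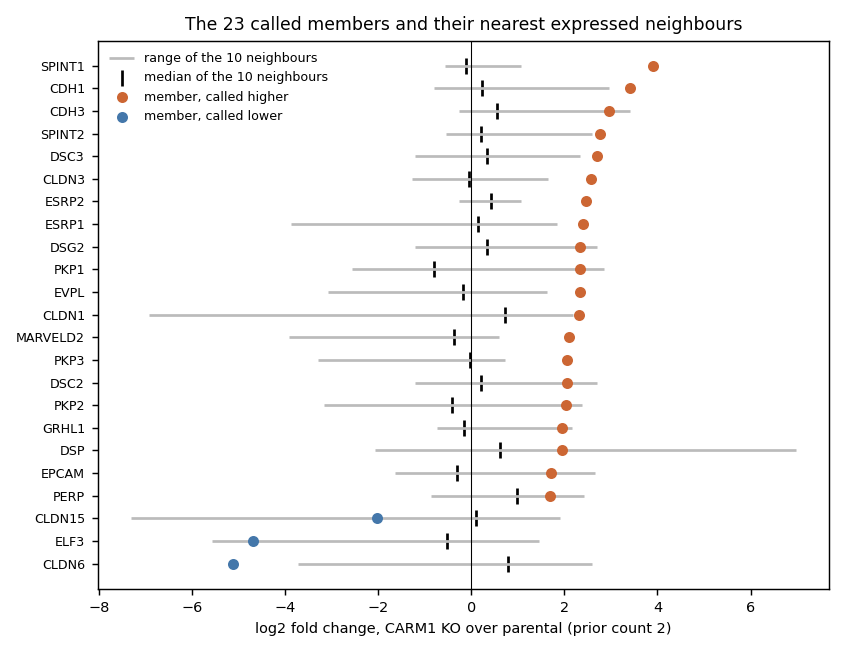
Log2 fold change (prior count 2) of the 23 called members (dots, orange for higher and blue for lower) with the range (grey line) and median (tick) of their 10 nearest expressed protein-coding neighbours. The neighbours' medians lie between -0.79 and 0.98, and the higher members, which were picked by a fold above 3, lie between 1.70 and 3.91.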

How the data were processed

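RNA was extracted with Trizol, and libraries were prepared with the ScriptSeq complete Gold kit and sequenced as 75 bp paired-end reads. The authors aligned reads to hg19 with bowtie2 and deposited estimated counts per Ensembl gene from RSEM (version 1.2.3 in the submitters' processing notes), as whole numbers and not normalized. In RSEM, reads shared by similar genes are divided between them. Genes were named and measured from GENCODE 44 lifted to GRCh37, which is the hg19 build and matched 55501 of 57736 identifiers.

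TMM factors were computed with edgeR 4.0.16 (R 4.3.3) on genes whose reads summed to at least 10. A quasi-likelihood fit needs replicates and was not possible here. Intervals are Clopper-Pearson (scipy 1.17.1) on the counts as deposited, and a count of 0 was set to 3 reads for the fold value only. Levels per length used merged exons of all annotated transcripts, which understates genes with long rare exons. Log2 values used a prior count of 2. The calculation was tested on simulated data. Exon overlaps used bedtools 2.31.1.

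The members and lists were chosen with earlier results of these data known. All 50 members are named, with related genes named where they were called and had at least 500 reads in 1 library, or to show a low or unchanged level. Some called related genes with fewer reads were also named, after their values were seen. Marker genes not matched by symbol were left out. Alternatives were library totals, upper-quartile and DESeq2 1.42.0 scaling, other minimums of reads, other call rules, and protein-coding genes only.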

Additional observations from a re-analysis of the deposited data

How the results depend on the processing

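Library totals, upper-quartile scaling, DESeq2 size factors and a minimum of 1 read left 20 members higher and 3 lower, with a median log2 fold change from 1.22 to 1.32. With at least 50 reads 34 members were compared, 18 were higher and 3 lower, as SPINT1 and CLDN3 were no longer compared, the members' median was 1.70, and 1226 genes in all were lower, against 2092. Where the whole interval had to lie beyond 3-fold, 1264 genes were higher and 1245 lower, against 2280 and 2092. At a fold above 2, 3344 genes were higher and 3225 lower, and 21 members were higher and 5 lower, as CLDN11, OCLN and CGN were added. At a coefficient of variation of 0.4, 532 genes were higher and 894 lower, and 5 members were higher. Among protein-coding genes only, 1287 were lower. For single members, 337 comparisons gave the same outcome, which includes members that were not called and stayed so. In 22 comparisons a call was lost and in 3 a call was gained. At a coefficient of 0.4 there were 16 of the losses, which follows from the wider spread it assumes. No paired analysis was possible because each group holds 1 library, and for the same reason none could be left out. Depth limits the members under 10 reads in both libraries together, which were not compared.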
